A study of Canis lupus with 23 samples.

Results

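Soft tissue sarcoma, as 4 tumors with 2 kinds of title are grouped here, was set against transitional cell carcinoma (TCC) in 7 of the 23 dog tumors of the series. The 4 sarcomas were the tumors whose titles read STS (numbers 0 and 1) or Sarcoma (numbers 0 and 1), joined as 1 group, and the reference was the 3 tumors titled TCC (numbers 0, 1 and 2). Tumor messenger RNA had been amplified and read on the Affymetrix Canine Genome 2.0 array, 1 array for each dog, so the spread within a group was a spread between dogs. The labels do not say whether the 2 titles stand for the same diagnosis, so the tumors titled Sarcoma may be of another kind than those titled STS. By the study's methods, all dogs were untreated pets, the biopsies were mostly tumor tissue, the TCC dogs were enrolled as Scottish terriers and the sarcomas came from a cohort open to any breed and histology. The bladder tumors were sampled through a cystoscope or under ultrasound guidance and the others by needle, punch or open biopsy. Breed, body site and way of sampling therefore cannot be told apart from tumor type. The cell of origin of each sarcoma and the ages and sexes behind single titles were not used here.

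Sarcomas of soft tissue arise from cells of the connective tissue lineage. Such cells lie singly in a matrix of collagens and proteoglycans that they secrete, carry vimentin as their intermediate filament and depend on transcription factors of embryonic mesenchyme. TCC, also called urothelial carcinoma, arises from the lining of the bladder, a stratified epithelium in which cells are held together by E-cadherin, desmosomes and tight junctions, filled with keratins, and covered on the luminal side by plaques of uroplakins. In biopsies, both kinds of tumor also hold vessels, stroma and immune cells. Since these are bulk samples, fewer cells of a type and less RNA per cell cannot be told apart.

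The labels were checked against cell type markers, with all levels given as log2 of the signal plus 16, on which a silent gene lies near 4. The mean of 6 urothelial markers was 4.57 to 4.94 across the 4 sarcomas, against 9.64 to 10.71 across the 3 TCC, and the mean of 6 epithelial markers was 5.47 to 7.30 among sarcomas, against 11.18 to 11.48 among TCC. The mean of 7 fibroblast and matrix markers was 11.70 to 13.32 among sarcomas, against 9.71 to 10.92 among TCC, so the 3 sets placed all 7 tumors with their titles. Of 5 skeletal muscle markers, the lineage factor MYOD1 lay near the floor in all 7 tumors (4.34 to 4.56 among sarcomas, against 4.20 to 4.66 among TCC), but MYH2, a myosin heavy chain, was at 9.54 in STS_0 and at most 5.55 in the other sarcomas, against 6.25 at most among TCC. TNNI2, a troponin of fast muscle fibers, was at 8.94, 7.82, 7.22 and 5.52 in STS_0, STS_1, Sarcoma_0 and Sarcoma_1 against 11.13, 11.02 and 11.70 in the TCC and was called lower (-3.91, adjusted p = 0.0121; call lost without TCC_0 or TCC_2, adjusted p up to 0.0585). The mean of the 5 was 4.72 to 7.02 across the sarcomas, against 5.84 to 6.74 across the TCC, and its part in the results was not tested. The liver marker ALB was at most 4.87 in the sarcomas and 5.61 in the TCC. The arrays had the same scale, with trimmed means of 500.1 on all 7, and 19.8% to 23.9% of probesets below a signal of 16 in sarcoma arrays and 21.6% to 23.2% in TCC arrays. The 3′ to 5′ ratio of the GAPDH and ACTB control probesets, a log2 measure of RNA integrity, averaged -0.10 to 0.19 in sarcoma arrays and 0.24 to 0.75 in TCC arrays (difference -0.50, exact two-sided permutation p = 0.0286, the smallest that 35 splits allow). The difference came from the ACTB pair (-1.03), while that of the GAPDH pair was 0.03 (exact p = 0.886) and that of a second actin set -0.02 (exact p = 0.943); its part in the results was not tested.

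Of 15115 genes on the annotation, 8082 were tested, and 662 (8.19%) were called when the adjusted p was below 0.05 and the log2 fold change exceeded 1 in either direction. More genes were lower in the sarcomas than higher: 267 (3.3% of those tested) were called higher and 395 (4.89%) lower, and 95 of the lower but 15 of the higher genes differed by at least 4 on the log2 scale. The median log2 fold change over all tested genes was -0.02. The values of the sarcomas and the TCC did not overlap for 1950 genes (24.1%), among them all 662 called. Part of the called genes entered the test through 1 group only, since a gene had to exceed the median of all values in at least 3 of the 7 arrays: 150 genes passed through the TCC alone, of which 115 were called lower, and 353 through the sarcomas alone, of which 93 were called higher. Such genes were admitted by the group in which they are high, so their calls are a description, and where the other group lies near the floor the size of the change is bounded by it. This holds for every such gene named below, whether or not it is marked again.

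**Figure D1:**
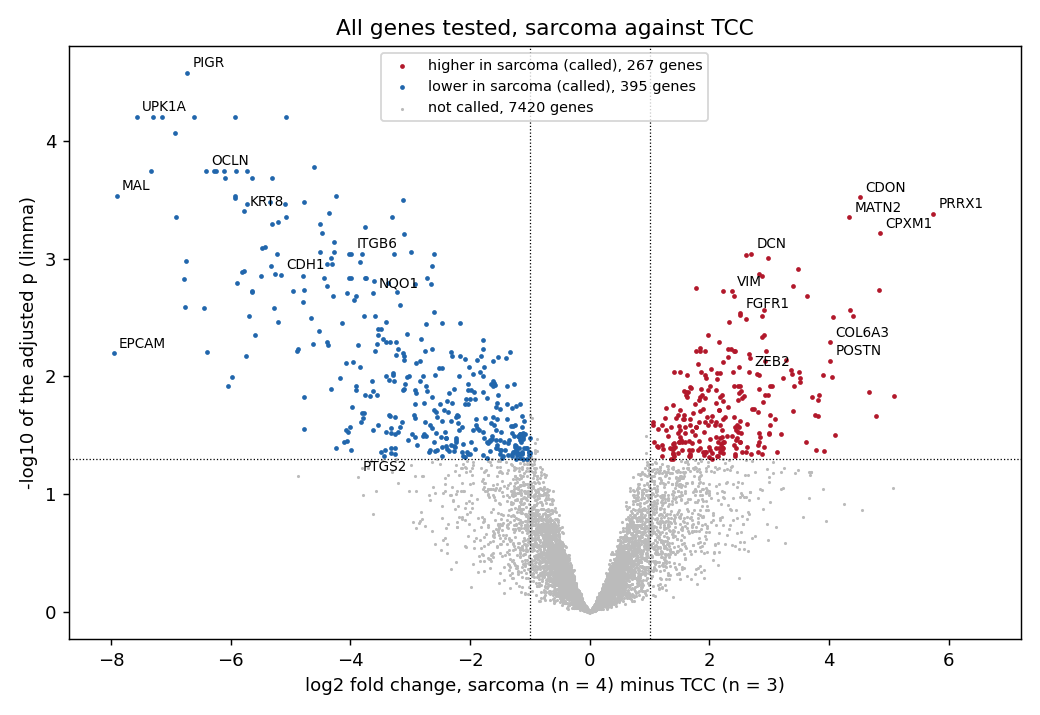
Log2 fold change, sarcoma (n = 4) minus TCC (n = 3), on the horizontal axis against -log10 of the adjusted p on the vertical axis for the 8082 genes tested; red points are the 267 genes called higher in sarcoma, blue points the 395 called lower, and dotted lines mark the limits of a call. The lower side reaches further, to -7.96 for EPCAM, than the higher side, which ends at 5.74 for PRRX1.

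The largest difference on the higher side was that of PRRX1, a homeobox factor of limb and craniofacial mesenchyme. PRRX1 read 12.49 and 10.78 in the tumors STS_0 and STS_1 and 11.48 and 12.27 in Sarcoma_0 and Sarcoma_1, against 5.43, 5.76 and 6.86 in TCC_0, TCC_1 and TCC_2. The 2 groups were far apart, with a log2 fold change of 5.74 (SE 0.50, adjusted p = 0.000416). PRRX1 entered the test through the sarcomas alone, so its call is a description. PRRX1 belonged to a list of 5 tested transcription factors known from epithelial-mesenchymal transition, of which 3 were called higher and none lower, with a list median of 2.22. ZEB2, a zinc finger repressor of E-cadherin, read 11.45, 11.32, 12.44 and 11.10 in STS_0, STS_1, Sarcoma_0 and Sarcoma_1, against 9.18, 8.05 and 9.53 in the TCC (log2 fold change 2.66, SE 0.44, adjusted p = 0.00914). TCF4, a basic helix-loop-helix factor, was the other call (2.22, adjusted p = 0.0357). ZEB1 (1.68, adjusted p = 0.110), another E-cadherin repressor, was not called. Over all genes, 3.3% were called higher. Other mesenchymal lists gave no call: none of 11 tested mesenchymal cadherin and fibroblast surface genes (median 1.48, 10 above 0) was called. The same held for 12 smooth muscle and pericyte genes (median 0.11).

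Vimentin is the intermediate filament of mesenchymal cells and is also abundant in stroma and leukocytes. VIM read 15.54, 15.57, 15.96 and 15.28 in STS_0, STS_1, Sarcoma_0 and Sarcoma_1 and 13.46, 12.59 and 13.59 in the TCC (log2 fold change 2.37, SE 0.29, adjusted p = 0.00188). Other developmental regulators on the higher side had clear gaps too. TBX15, a T-box factor of limb and dermal mesenchyme, read 9.88, 8.80, 7.92 and 7.61 in the 4 sarcomas, in the same tumor order, against 4.09, 4.18 and 4.20 in the TCC, where it was silent (4.40, SE 0.58, adjusted p = 0.00304). CDON, a surface co-receptor for Hedgehog ligands, read 11.05, 9.82, 10.79 and 10.41 in the sarcomas against 5.57, 6.29 and 6.15 in the TCC (4.52, SE 0.36, adjusted p = 0.000302). TBX15 and CDON also entered the test through the sarcomas alone. NFIX, a nuclear factor I member with roles in muscle and brain development, was higher by 4.83 (adjusted p = 0.00185), EBF1, a factor of B cell and adipocyte development, by 3.41 (adjusted p = 0.0120), and FSCN1, an actin-bundling protein of cell protrusions, by 3.63 (adjusted p = 0.00208). EBF1 and FSCN1 stood outside the rule for named genes and were chosen after their values were seen. The call of TCF4 was lost without Sarcoma_0, TCC_0, TCC_1 or TCC_2 (adjusted p up to 0.139) and that of EBF1 without TCC_1 or TCC_2 (up to 0.0596).

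The matrix genes formed the broadest group on the higher side, but most of their members missed the threshold. Of 19 tested fibrillar collagens and collagen enzymes, 5 were called higher and none lower (median 1.87), of 6 other collagens 2 were called higher (median 0.87), and of 23 matrix glycoproteins and proteoglycans 5 were called higher and none lower (median 0.81). Over all genes, 3.3% were called higher and 4.89% lower. COL6A3, a chain of the microfibrillar collagen VI, read 12.51, 13.19, 11.90 and 12.05 in STS_0, STS_1, Sarcoma_0 and Sarcoma_1 and 7.36, 7.93 and 9.87 in the TCC (log2 fold change 4.02, SE 0.59, adjusted p = 0.00511). Its partner chain COL6A1 was called as well (2.13, adjusted p = 0.00937). The fibril-forming COL1A2 was higher by 2.94 (SE 0.54, adjusted p = 0.0143) and COL3A1 by 2.21 (SE 0.48, adjusted p = 0.0282), whereas COL1A1, the other chain of collagen I, differed by 1.87 without a call (adjusted p = 0.0892): its level in Sarcoma_1, 12.59, lay below the 13.11 of TCC_2. Enzymes and helpers of collagen assembly were called with them. PCOLCE, which enhances procollagen cleavage, was higher by 2.91 (adjusted p = 0.00273) and its relative PCOLCE2 by 4.35 (adjusted p = 0.00273). The crosslinking enzyme LOXL3 was higher by 3.02 (adjusted p = 0.0211) and the collagen chaperone SERPINH1 by 2.09 (adjusted p = 0.0258), while LOX itself was not called (2.30, adjusted p = 0.0788).

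Among the noncollagenous matrix genes, the clearest was decorin, a small proteoglycan that binds collagen fibrils. DCN read 15.01, 14.36, 14.61 and 14.98 in STS_0, STS_1, Sarcoma_0 and Sarcoma_1 and 12.18, 11.53 and 12.42 in the TCC (log2 fold change 2.70, SE 0.28, adjusted p = 0.000913). Periostin, a matricellular protein of fibroblasts, was brightest in the 2 STS tumors: POSTN read 14.23 and 14.23 there and 12.83 and 12.00 in Sarcoma_0 and Sarcoma_1, against 9.06, 8.502 and 10.36 in the TCC (4.02, SE 0.64, adjusted p = 0.00733). FBN1 (fibrillin of elastic microfibrils) was higher by 3.77 (adjusted p = 0.0211), FBLN2 by 2.85 (adjusted p = 0.0326) and SPARC, which binds calcium and collagen, by 1.76 (adjusted p = 0.0172). Matrix genes outside the lists included MATN2, an adaptor of filamentous networks, at 11.37, 11.01, 11.79 and 12.07 in the sarcomas against 7.73, 6.49 and 7.44 in the TCC (4.34, SE 0.38, adjusted p = 0.000445). CPXM1, a secreted carboxypeptidase-like protein, was higher by 4.85 (adjusted p = 0.000612), ABI3BP by 4.79 (adjusted p = 0.0215) and TNFAIP6, a hyaluronan-binding protein induced in inflammation, by 5.09 (adjusted p = 0.0146). In the basement membrane list, LAMA4 (2.23, adjusted p = 0.0162) and NID1 (2.16, adjusted p = 0.0194) were called higher among 13 tested. That is 15.4% of the list, against 3.3% of all genes.

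The matrix calls rested on 3 TCC of which TCC_2 was the richest in matrix. TCC_2 had the highest level of the 3 for COL1A2, COL3A1, COL6A3, POSTN, FBN1 and SPARC. Without TCC_0 or TCC_1, the calls of COL1A2 (adjusted p up to 0.0621), FBN1 (adjusted p up to 0.0960), SPARC (adjusted p up to 0.0883), LAMA4 (adjusted p up to 0.0795), LOXL3 (adjusted p up to 0.0640) and TNFAIP6 (adjusted p up to 0.0702) were lost. Without STS_0, STS_1, TCC_0 or TCC_1, the call of COL3A1 (adjusted p up to 0.120) was lost. Without TCC_1 or TCC_2, the calls of NID1 (adjusted p up to 0.0698) and ABI3BP (adjusted p up to 0.0842) were lost. Without TCC_0, TCC_1 or TCC_2, the call of SERPINH1 (adjusted p up to 0.106) was lost. Without STS_1, Sarcoma_1, TCC_0, TCC_1 or TCC_2, the call of FBLN2 (adjusted p up to 0.127) was lost. Such losses were not particular to matrix genes: of all 662 calls, 406 were lost without TCC_0, 362 without TCC_1 and 363 without TCC_2. The calls of PRRX1, ZEB2, VIM, TBX15, CDON, NFIX, FSCN1, COL6A1, COL6A3, PCOLCE, PCOLCE2, DCN, POSTN, MATN2 and CPXM1 held with each tumor left out in turn.

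**Figure D2:**
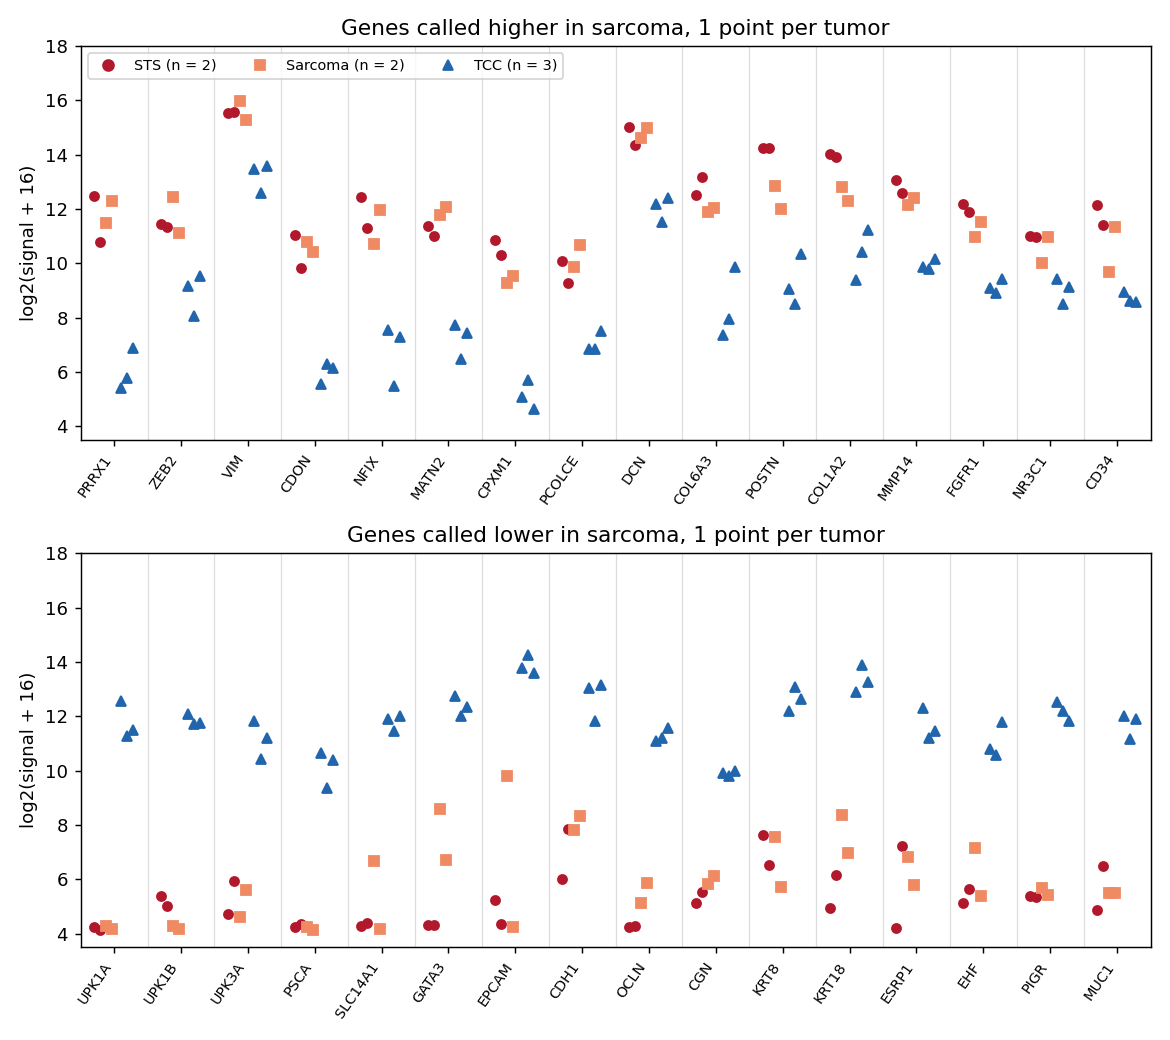
Log2(signal + 16) of 16 genes called higher (top) and 16 called lower (bottom) in sarcoma, 1 point for each tumor, with the 2 STS tumors (red circles) and 2 Sarcoma tumors (orange squares) left of the 3 TCC (blue triangles). In every gene shown the sarcomas and the TCC do not overlap, and EPCAM is at 9.82 in Sarcoma_0 but at 4.25 to 5.22 in the other 3 sarcomas.

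Proteases and their inhibitors moved in both directions, with 3 of 18 tested called higher and 2 lower. The shares over all genes were 3.3% higher and 4.89% lower. MMP14, the membrane-bound collagenase, read 13.07, 12.58, 12.15 and 12.42 in STS_0, STS_1, Sarcoma_0 and Sarcoma_1 against 9.85, 9.80 and 10.16 in the TCC (log2 fold change 2.62, SE 0.27, adjusted p = 0.000940). ADAMTS5, an aggrecanase, was higher by 3.51 (adjusted p = 0.0110; call lost without TCC_0, adjusted p up to 0.0592), and the metalloprotease inhibitor TIMP2 by 1.54 (adjusted p = 0.0424; call lost without STS_0, STS_1, Sarcoma_0, Sarcoma_1, TCC_0 or TCC_2, adjusted p up to 0.164). RECK, a membrane-anchored inhibitor of metalloproteases outside the lists, was higher by 3.90 (adjusted p = 0.00971). The 2 calls in the other direction belong to epithelial surfaces: TMPRSS2, a transmembrane serine protease, read 4.28, 4.33, 4.76 and 4.23 in the sarcomas against 10.77, 9.68 and 9.94 in the TCC (-5.73, SE 0.41, adjusted p = 0.000179), and SPINT1, an inhibitor of such proteases, was lower by 5.35 on the log2 scale (log2 fold change -5.35, adjusted p = 0.000335). MMP2 was not called (1.75, adjusted p = 0.116).

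The list of mesenchymal receptor kinases and their ligands gave 3 calls among 16 tested, all higher, those of 2 receptors and 1 ligand. Of all genes, 3.3% were called higher and 4.89% lower. FGFR1, a fibroblast growth factor receptor, read 12.20, 11.87, 10.97 and 11.51 in STS_0, STS_1, Sarcoma_0 and Sarcoma_1 against 9.07, 8.89 and 9.42 in the TCC (log2 fold change 2.51, SE 0.33, adjusted p = 0.00292). The ligand FGF7, made by stroma to act on epithelium, was higher by 3.82 (adjusted p = 0.0216; call lost without TCC_0 or TCC_1, adjusted p up to 0.0669), and the collagen receptor DDR2 by 1.99 (adjusted p = 0.0400; call lost without STS_0, STS_1, Sarcoma_1, TCC_0, TCC_1 or TCC_2, adjusted p up to 0.132). PDGFRA did not follow them, at 10.58, 11.30, 11.44 and 11.51 in the sarcomas against 12.62, 12.31 and 11.67 in the TCC (-0.99, adjusted p = 0.1002). On the epithelial side, EFNA1, an ephrin ligand, was called lower (-1.98, adjusted p = 0.0129; call lost without TCC_0 or TCC_2, adjusted p up to 0.0778) among 6 tested, and ERBB3 was not (-2.98, adjusted p = 0.0565), with Sarcoma_0 at 9.92 close to the TCC at 10.28 to 10.64. No member of the IGF binding protein (5 tested) or VEGF (8 tested) lists was called.

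Calls outside these groups included NR3C1, the glucocorticoid receptor, at 10.999, 10.98, 10.02 and 10.97 in STS_0, STS_1, Sarcoma_0 and Sarcoma_1 against 9.42, 8.501 and 9.11 in the TCC (log2 fold change 1.73, SE 0.35, adjusted p = 0.0205; call lost without TCC_1 or TCC_2, adjusted p up to 0.0872). MT2A, a metal-binding metallothionein, was higher by 4.05 (adjusted p = 0.0100), and PMP22, a myelin protein also made by fibroblasts, by 2.89 (adjusted p = 0.00304). TMOD2, a tropomodulin that caps actin filaments, was higher by 4.67 (adjusted p = 0.0134; call lost without TCC_0, TCC_1 or TCC_2, adjusted p up to 0.0615). PLXDC1, a plexin domain protein of tumor vessels, was higher by 4.11 (adjusted p = 0.0313; call lost without STS_0, STS_1, Sarcoma_1, TCC_0, TCC_1 or TCC_2, adjusted p up to 0.120). CRABP2, a carrier of retinoic acid, was higher by 3.83 (adjusted p = 0.0144; call lost without TCC_0 or TCC_2, adjusted p up to 0.0664). CD34, a surface protein of vessels, progenitors and some fibroblasts, read 12.15, 11.41, 9.67 and 11.35 in the sarcomas and 8.96, 8.62 and 8.59 in the TCC (2.42, adjusted p = 0.0267; call lost without STS_1, Sarcoma_1, TCC_0, TCC_1 or TCC_2, adjusted p up to 0.103). The vessel gene VWF went the other way, at 9.54, 9.95, 10.49 and 9.14 in the sarcomas against 11.07, 11.51 and 11.47 in the TCC (-1.57, adjusted p = 0.0282; call lost without STS_0, TCC_0, TCC_1 or TCC_2, adjusted p up to 0.113), and it was the single call among 10 tested endothelial genes, whose median was -1.004. VWF made up 10% of the tested endothelial genes, where 4.89% of all genes were called lower. The mean of 5 endothelial markers was 7.83 to 9.05 among sarcomas, against 9.40 to 9.48 among TCC.

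Genes of the bladder lining were lower in the 4 sarcomas, and the uroplakin UPK1A and the antigen PSCA lay near the floor in all 4, while other members did not. Of 11 tested members of the urothelial list, 9 were called lower and none higher, with a median of -5.91, where 4.89% of all genes were called lower. Of the 9, 6 passed the filter through the TCC alone. UPK1A, a tetraspanin of the uroplakin plaque, read 4.24, 4.13, 4.27 and 4.17 in STS_0, STS_1, Sarcoma_0 and Sarcoma_1 against 12.56, 11.29 and 11.48 in the TCC (log2 fold change -7.57, SE 0.38, adjusted p = 6.25e-05). Its relative UPK1B read 5.37, 5.03, 4.27 and 4.17 in the sarcomas against 12.10, 11.72 and 11.75 in the TCC (-7.15, adjusted p = 6.25e-05). UPK3A (-5.93, adjusted p = 0.000292) and UPK2 (-3.05, adjusted p = 0.0100; call lost without TCC_0, adjusted p up to 0.0670) completed the plaque proteins that were tested. The urea transporter SLC14A1 differed by -6.92 (adjusted p = 0.000445) and the surface antigen PSCA by -5.91 (adjusted p = 0.000179). GATA3, a transcription factor of urothelium and also of T cells, was at 4.30 and 4.30 in STS_0 and STS_1 but at 8.59 and 6.72 in Sarcoma_0 and Sarcoma_1, against 12.75, 12.02 and 12.35 in the TCC (-6.39, SE 0.98, adjusted p = 0.00621). PPARG, a nuclear receptor of urothelium and of fat cells, was less silent in sarcoma, at 11.74, 9.49, 7.87 and 9.15 against 13.30, 13.07 and 12.95 in the TCC (-3.54, adjusted p = 0.0258; call lost without Sarcoma_1, TCC_0, TCC_1 or TCC_2, adjusted p up to 0.108).

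Cell adhesion genes of epithelium were lower in the sarcomas as a group. Of 24 tested junction and polarity genes, 15 were called lower and none higher, where 4.89% of all genes were called lower. All 24 log2 fold changes were negative, and the median was -2.56. Of the 24, 5 entered the test through the TCC alone, and 4 of these were called lower. EPCAM, the epithelial cell adhesion molecule, had the largest difference of all genes: 5.22, 4.35, 9.82 and 4.25 in STS_0, STS_1, Sarcoma_0 and Sarcoma_1 against 13.76, 14.27 and 13.58 in the TCC (log2 fold change -7.96, SE 1.22, adjusted p = 0.00634). Sarcoma_0 was well above the other 3 sarcomas but still below each TCC. E-cadherin (CDH1) read 6.02, 7.87, 7.80 and 8.35 in the sarcomas against 13.02, 11.83 and 13.14 in the TCC (-5.16, SE 0.57, adjusted p = 0.00137). Tight junction genes followed: OCLN (occludin) differed by -6.41 (adjusted p = 0.000179), CGN (cingulin) by -4.24 (adjusted p = 0.000292), F11R by -4.02 (adjusted p = 0.00145) and CLDN7 by -3.90 (adjusted p = 0.00208). The desmosomal genes were less uniform, with JUP at -1.95 (adjusted p = 0.00948; call lost without TCC_0, adjusted p up to 0.0564), PERP at -3.40 (adjusted p = 0.00345), and DSP not called (-2.90, adjusted p = 0.194), since Sarcoma_1, at 10.69, lay above every TCC. ITGB6, an epithelial integrin chain, was the single call among 13 tested integrins and entered the test through the TCC alone (-3.98, SE 0.41, adjusted p = 0.000913).

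All 4 tested simple epithelial keratins were called lower (median -5.28), and 1 of them entered the test through the TCC alone. Among all genes, 4.89% were called lower. None of 3 tested keratins of stratified epithelium was called (median -0.76, 2 of 3 below 0), and the difference between the 2 lists was not tested. KRT8 read 7.63, 6.51, 7.55 and 5.72 in STS_0, STS_1, Sarcoma_0 and Sarcoma_1 against 12.18, 13.09 and 12.63 in the TCC (log2 fold change -5.78, SE 0.50, adjusted p = 0.000397), and its partner KRT18 read 4.93, 6.16, 8.37 and 6.95 against 12.87, 13.90 and 13.27 (-6.75, adjusted p = 0.00106). KRT7 was present in STS_0 at 10.03, below the lowest TCC at 11.94 (-4.78, adjusted p = 0.0151; call lost without TCC_0, TCC_1 or TCC_2, adjusted p up to 0.0704), and KRT23 differed by -4.05 (adjusted p = 0.0298; call lost without STS_0, Sarcoma_1, TCC_0 or TCC_2, adjusted p up to 0.132). KRT13, a keratin of stratified mucosa, was not called (-2.46, adjusted p = 0.159).

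The transcription and splicing factors that maintain epithelium were lower as a group, with 10 of 13 tested called lower and none higher, a median of -3.37, and 7 of the 10 entering the test through the TCC alone. The share of all genes called lower was 4.89%. ESRP1, which directs epithelial splicing, read 4.22, 7.21, 6.83 and 5.79 in STS_0, STS_1, Sarcoma_0 and Sarcoma_1 against 12.30, 11.21 and 11.46 in the TCC (log2 fold change -5.64, SE 0.68, adjusted p = 0.00188), and its relative ESRP2 differed by -3.37 (adjusted p = 0.00162). The ETS factor EHF read 5.11, 5.65, 7.15 and 5.38 in the sarcomas against 10.79, 10.57 and 11.80 in the TCC (-5.23, adjusted p = 0.000913). KLF5, a factor of proliferating epithelium, kept sizeable levels in the STS tumors, 10.56 and 8.42, and 9.85 and 7.41 in Sarcoma_0 and Sarcoma_1, against 13.96, 13.75 and 13.34 in the TCC (-4.63, adjusted p = 0.00530). The grainyhead factors GRHL2 (-3.76, adjusted p = 0.00145), GRHL1 (-2.83, adjusted p = 0.00486) and GRHL3 (-2.43, adjusted p = 0.0193; call lost without TCC_0, TCC_1 or TCC_2, adjusted p up to 0.0976), the repressor OVOL1 (-3.55, adjusted p = 0.00530) and VGLL1 (-3.94, adjusted p = 0.00225) were called too.

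Genes of mucosal secretion and defense gave 5 lower calls among 12 tested, 4 of them of genes that entered the test through the TCC alone. By the same rule, 4.89% of all genes were called lower. PIGR, the receptor that carries immunoglobulins across epithelium, had the smallest adjusted p of all: it read 5.37, 5.33, 5.68 and 5.43 in STS_0, STS_1, Sarcoma_0 and Sarcoma_1 against 12.53, 12.18 and 11.83 in the TCC (log2 fold change -6.73, SE 0.28, adjusted p = 2.66e-05). The mucin MUC1 differed by -6.10 (adjusted p = 0.000179) and AGR2, a protein folding factor of secretory cells, by -4.80 (adjusted p = 0.00232). CP, the copper carrier ceruloplasmin, was at 6.21, 5.84, 9.38 and 6.19 in the sarcomas, with Sarcoma_0 apart from the others, against 13.08, 13.53 and 11.32 in the TCC (-5.74, adjusted p = 0.00675). MAL, a lipid raft protein of the apical surface that also belongs to myelin, was at 4.19, 4.18, 6.07 and 6.69 in the sarcomas against 13.02, 13.30 and 13.24 in the TCC (-7.91, SE 0.63, adjusted p = 0.000292). GABRP, a chloride channel subunit, differed by -7.32 (adjusted p = 0.000179), PDZK1IP1 by -7.30 (adjusted p = 6.25e-05), FXYD3 by -6.77 (adjusted p = 0.00148) and NIPAL1, a magnesium transporter, by -6.62 (adjusted p = 6.25e-05). POF1B, an actin-binding protein of epithelium, differed by -6.93 (adjusted p = 8.64e-05) and CYP4A37, a member of the cytochrome P450 4A family, by -6.45 (adjusted p = 0.00260).

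Enzymes of detoxification and of prostaglandin synthesis split between the groups. For the counts below, 3.3% of all genes were called higher and 4.89% lower. ALDH1A1, which makes retinoic acid, read 5.33, 5.26, 8.12 and 8.75 in STS_0, STS_1, Sarcoma_0 and Sarcoma_1 against 13.97, 13.47 and 13.43 in the TCC (log2 fold change -6.76, SE 0.86, adjusted p = 0.00255). NQO1, a quinone reductase, was at 6.89, 7.87, 7.65 and 8.06 in the sarcomas against 12.18, 10.88 and 10.66 in the TCC (-3.62, SE 0.44, adjusted p = 0.00195). These were 2 of the 3 calls among 12 genes of xenobiotic and retinoid metabolism, CRABP2 being the third. In the prostaglandin list, with 9 tested, PLA2G4A, the phospholipase that frees arachidonic acid, was lower (-2.47, adjusted p = 0.00854), as was the cyclooxygenase PTGS1 (-3.34, adjusted p = 0.0216; call lost without TCC_0 or TCC_2, adjusted p up to 0.105), while the prostaglandin D synthase PTGDS was higher (3.92, adjusted p = 0.0430; call lost without STS_0, STS_1, Sarcoma_1, TCC_0, TCC_1 or TCC_2, adjusted p up to 0.156). PTGDS was at 6.10 in Sarcoma_0, just above the highest TCC at 6.003, and from 9.38 to 10.24 in the other 3 sarcomas. It entered the test through the sarcomas alone.

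Among signaling genes, 4 of 14 tested TGF-beta and BMP genes were called, 1 higher and 3 lower, where 3.3% of all genes were called higher and 4.89% lower, and 1 of 12 WNT genes and 1 of 5 HOX genes were called. BMP5 (-3.63, adjusted p = 0.0133), BMP2 (-3.48, adjusted p = 0.0435) and BMP4 (-1.79, adjusted p = 0.0467), all secreted bone morphogenetic proteins, were called lower among 14 tested TGF-beta and BMP genes, and the co-receptor TGFBR3 was called higher (2.64, adjusted p = 0.0397). FRZB, a secreted WNT antagonist, was the single call among 12 tested WNT genes: it read 7.21, 10.23, 9.01 and 9.30 in STS_0, STS_1, Sarcoma_0 and Sarcoma_1 against 12.28, 13.50 and 13.23 in the TCC (log2 fold change -4.07, SE 0.65, adjusted p = 0.00763). HOXA13, a homeobox factor of the hindgut and urogenital region, was lower (-2.78, adjusted p = 0.0322), and NOTCH2 higher (1.71, adjusted p = 0.0287). The call of BMP5 was lost without TCC_0 or TCC_2 (adjusted p up to 0.0795). The call of BMP2 was lost without Sarcoma_0, TCC_0, TCC_1 or TCC_2 (adjusted p up to 0.164). The call of BMP4 was lost without STS_0, Sarcoma_0, Sarcoma_1, TCC_0, TCC_1 or TCC_2 (adjusted p up to 0.179). The call of TGFBR3 was lost without STS_0, STS_1, TCC_0, TCC_1 or TCC_2 (adjusted p up to 0.141). The call of HOXA13 was lost without Sarcoma_1, TCC_0, TCC_1 or TCC_2 (adjusted p up to 0.126). The call of NOTCH2 was lost without TCC_0, TCC_1 or TCC_2 (adjusted p up to 0.119).

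**Figure D3:**
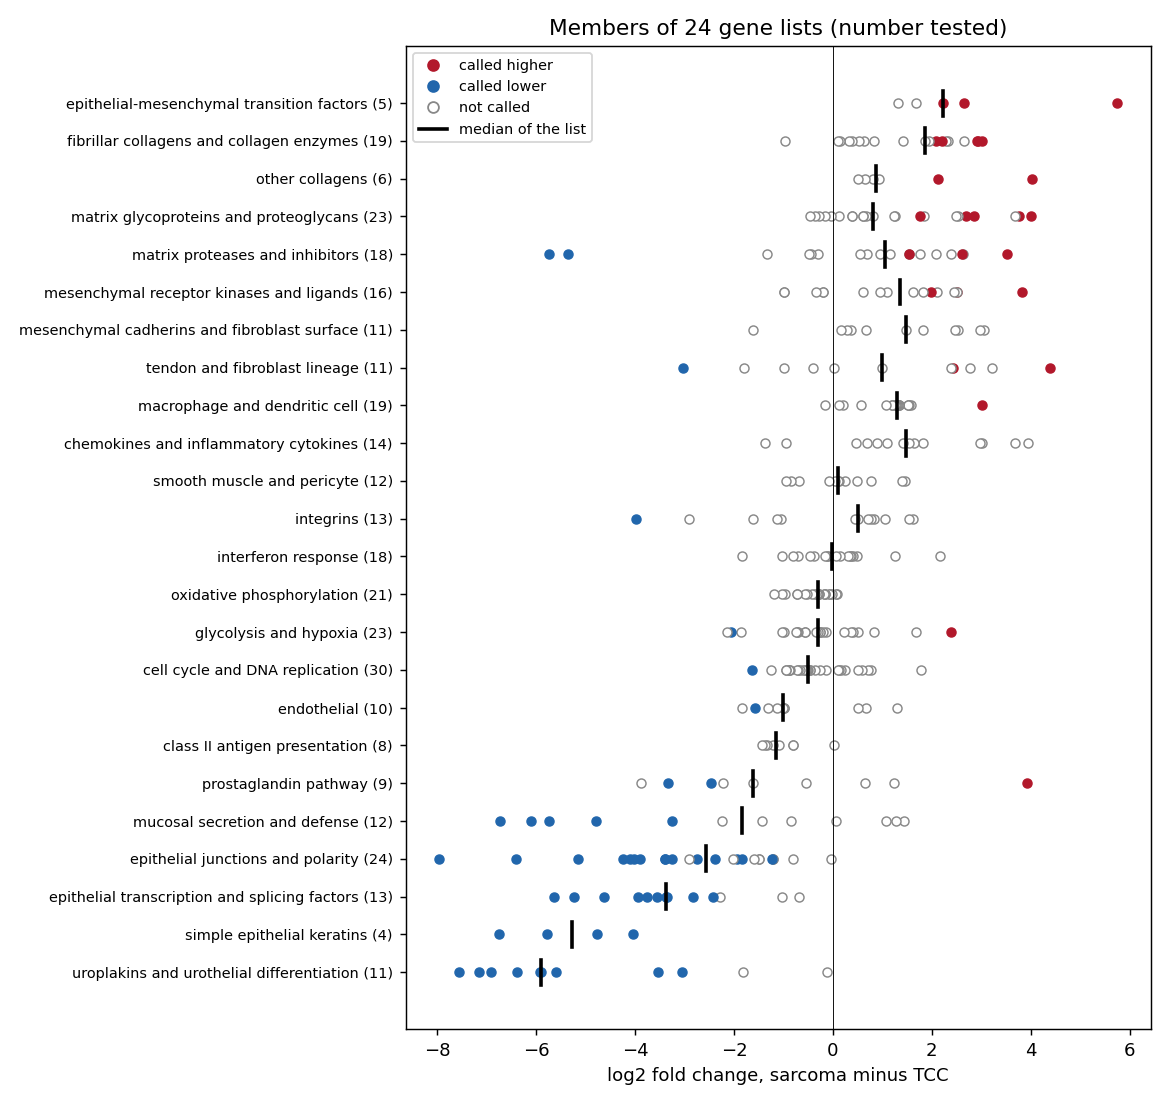
Log2 fold changes, sarcoma minus TCC, of the tested members of 24 gene lists, with the number tested in parentheses; red points were called higher, blue points called lower and open points not called, and the black bar is the median of the list. The simple keratin, junction, epithelial factor and uroplakin lists lie at medians of -2.56 to -5.91, and the 2 collagen lists and the matrix glycoproteins at 0.81 to 1.87.

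Among genes of growth and energy metabolism, the share called was near or below that of all genes, 3.3% called higher and 4.89% lower. It was 4.35% in each direction for glycolysis and hypoxia and 3.33% lower for the cell cycle list. Of 30 tested cell cycle and replication genes, 1 was called, the cyclin CCNE2, which was lower (-1.63, adjusted p = 0.0317; call lost without STS_0, TCC_0, TCC_1 or TCC_2, adjusted p up to 0.135), and the median was -0.51. No call was made among 21 genes of oxidative phosphorylation, whose median was -0.29 and of which 19 were below 0. The mean of that list was 10.93 to 11.11 across the sarcomas, against 11.23 to 11.57 across the TCC, without overlap. Values did not overlap and were lower in sarcoma for 6 of these 21 genes and for 7 of the 30 cell cycle genes, where 13.6% of all genes were of that kind. Among 23 genes of glycolysis and hypoxia, ENO2, the neuronal enolase, was higher (2.39, adjusted p = 0.00910) and NDRG1, a hypoxia-induced gene, lower (-2.05, adjusted p = 0.0435; call lost without STS_1, Sarcoma_0, Sarcoma_1, TCC_0 or TCC_2, adjusted p up to 0.168), while the glucose transporter SLC2A1 missed the threshold (-2.13, adjusted p = 0.0595). A missed threshold does not show that levels were alike: with 4 and 3 tumors, the 95% interval of TOP2A, for example, ran from -1.91 to 0.14 on the log2 scale.

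Immune lists held 1 call among them, that of MRC1, the mannose receptor of macrophages, which read 11.66, 9.54, 12.08 and 11.71 in STS_0, STS_1, Sarcoma_0 and Sarcoma_1 against 8.42, 8.97 and 7.31 in the TCC (log2 fold change 3.01, SE 0.64, adjusted p = 0.0256; call lost without Sarcoma_0, Sarcoma_1, TCC_0, TCC_1 or TCC_2, adjusted p up to 0.1003). Of the 19 tested macrophage and dendritic cell genes, 18 were above 0, with a median of 1.30, against -0.02 over all genes. MRC1 made up 5.26% of that list, where 3.3% of all genes were called higher. The mean of the list was 10.72 and 10.27 in Sarcoma_0 and Sarcoma_1. In STS_0 it was 9.19 and in STS_1 8.28, against 8.05 to 8.93 in the TCC, so STS_1 lay within the range of the TCC. None of 6 T and NK cell, 8 class II, 9 class I, 18 interferon response or 14 chemokine and cytokine genes was called. The chemokine CCL2, which attracts monocytes, was not called either (3.69, adjusted p = 0.0652): at 9.47 it was lowest in STS_0, below the 9.83 of TCC_0, and it reached 12.86 to 14.04 in the other 3 sarcomas.

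The study turned expression into drug advice through several methods, among them rules on single genes drawn from published knowledge. Here 18 genes that served the study in such rules or as drug targets were tested. Many of them marked top drugs for the study's sarcomas or TCC, so their directions are not independent evidence. SPARC, TOP2A, HDAC1, HDAC2 and HDAC3 were not among the genes the study listed with the top drugs of those tumors. Of the 18, 1 was called, SPARC, where 8.19% of all genes were called in either direction. SPARC levels were 14.998, 14.60, 14.43 and 13.57 in STS_0, STS_1, Sarcoma_0 and Sarcoma_1 and 12.37, 12.54 and 13.00 in the TCC. The median of the 18 genes was -0.27. PTGS2, the inducible cyclooxygenase that anti-inflammatory drugs such as piroxicam block, read 4.88, 8.999, 6.14 and 8.56 in the sarcomas against 11.45, 9.06 and 12.56 in the TCC (log2 fold change -3.88, SE 1.13, adjusted p = 0.0707). The groups did not overlap, but the 8.999 of STS_1 and the 9.06 of TCC_1 lay close together, and the gene was not called. ESR1, the estrogen receptor, ranged from 4.23 to 9.88 among sarcomas, against 8.95 to 10.07 among TCC (-2.84, adjusted p = 0.168). The calcium channel subunit CACNA2D1 was at 7.53, 10.93, 9.64 and 9.96 in the sarcomas against 7.29, 6.18 and 7.62 in the TCC (2.48, adjusted p = 0.0785), and IL1R1, the interleukin 1 receptor, ranged from 6.83 to 11.95 among sarcomas, against 6.42 to 7.96 among TCC (2.08, adjusted p = 0.307).

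Among these genes, none of the targets of receptor inhibitors and of cytotoxic drugs was called, which does not show that their levels were alike. KDR (-0.98, adjusted p = 0.222) and FLT1 (-1.27, adjusted p = 0.382), receptors of vascular endothelial growth factor, and ITGB3 (-1.14, adjusted p = 0.209) were not called. TOP2A, the topoisomerase that doxorubicin poisons, was at 10.19, 12.20, 10.86 and 11.70 in STS_0, STS_1, Sarcoma_0 and Sarcoma_1 and at 12.13, 11.94 and 12.31 in the TCC (log2 fold change -0.89, adjusted p = 0.271). TOP1 (-0.30), TYMS (-0.37), the DNA repair gene RAD23B (-0.08), the DNA methyltransferase DNMT1 (0.03), the deacetylases HDAC1 (-0.25), HDAC2 (0.17) and HDAC3 (0.43), and MTOR (0.22) differed little on the log2 scale, with adjusted p of 0.404 to 0.960.

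**Figure D4:**
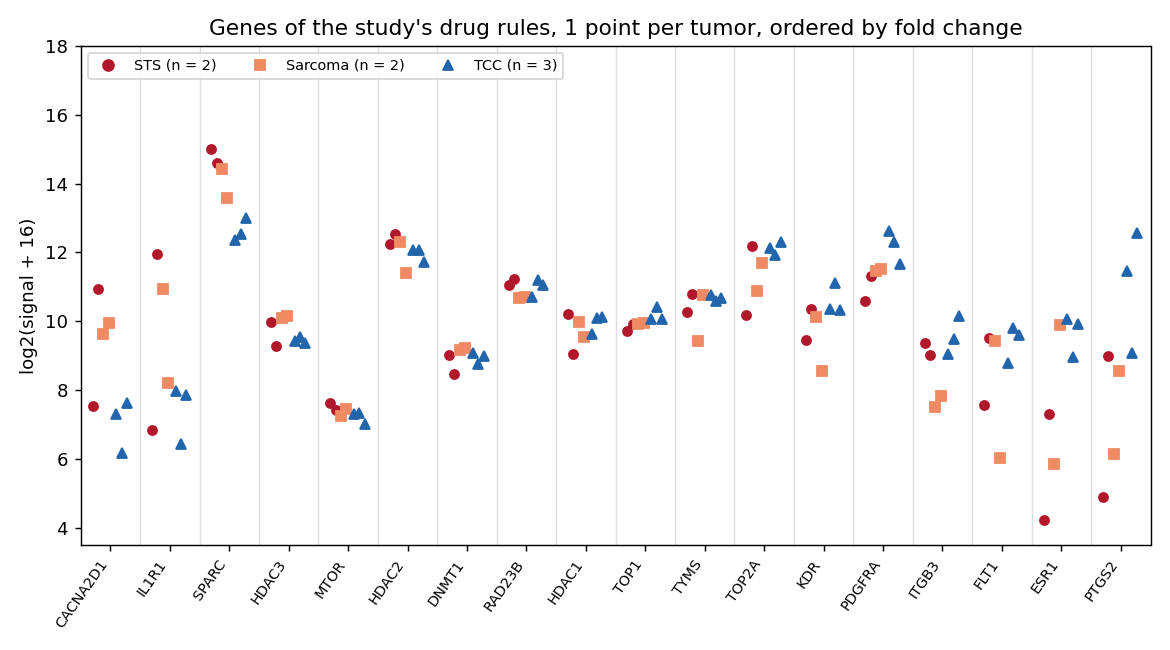
Log2(signal + 16) of the 18 tested genes of the study's drug rules, ordered by log2 fold change from CACNA2D1 (2.48) to PTGS2 (-3.88), 1 point for each tumor, with STS (red circles) and Sarcoma (orange squares) left of TCC (blue triangles). SPARC is the gene that was called; among the sarcomas PTGS2 spreads from 4.88 to 8.999, ESR1 from 4.23 to 9.88 and IL1R1 from 6.83 to 11.95.

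The 4 sarcomas varied more than the 3 TCC. The median standard deviation over genes was 0.52 among the sarcomas and 0.33 among the TCC, 73.2% of genes had the larger one in sarcoma, and it exceeded 1 for 1374 genes in sarcoma and 417 in TCC. Between 2 sarcomas, 452 to 721 genes differed by at least 2 on the log2 scale, between 2 TCC 122 to 194 did, and between a sarcoma and a TCC 767 to 1124. The model used a common variance for both groups. Each sarcoma also had a set of genes at least 3 log2 units above all 6 other tumors, 27 in STS_0, 22 in STS_1, 24 in Sarcoma_0 and 20 in Sarcoma_1, against 1 in TCC_0, 4 in TCC_1 and 0 in TCC_2. These values are a description of single tumors and have no test.

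In STS_0 the leading such genes were SOSTDC1, a secreted BMP and WNT antagonist, at 13.37 (6.11 above the next tumor), and GPC3, a heparan sulfate proteoglycan, at 13.07, with the BMP inhibitor CHRDL1 at 13.28 and the tendon gene TNMD at 11.75. STS_1 was set apart by IGF2, a fetal growth factor, at 12.54 (6.24 above the next tumor), the WNT antagonist SFRP1 at 13.05, the growth factor PDGFB at 11.91 and the neurofilament gene NEFL at 9.30. Sarcoma_0 stood out by PIP, a secretory protein of apocrine glands, at 13.22 (7.04 above the next tumor), CDH19, a cadherin of Schwann cells, at 12.49 (6.96 above the next), the complement component C3 at 13.98 and the mast cell protease CPA3 at 10.91. This is the tumor with EPCAM at 9.82. Of the other mast cell markers, FCER1A was highest in Sarcoma_0 (7.69), but KIT (7.54) and MS4A2 (7.17) were lower there than in STS_1 (7.66 and 7.23). The Schwann cell marker SOX10 was at 7.17 in Sarcoma_0, against 6.25 in TCC_0. Sarcoma_1 was led by CD5L, a protein secreted by macrophages, at 10.82 (4.97 above the next tumor), with the WNT agonist RSPO3 at 12.54 and the fat cell hormone ADIPOQ at 10.80. Other fat cell markers did not set it apart from STS_1. In Sarcoma_1 and STS_1, FABP4 was at 10.65 and 10.65, PLIN1 at 5.51 and 5.61, and CIDEC at 6.84 and 6.34.

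The 2 titles within the sarcoma group differed in 2 of 8082 genes (0.0247%), both lower in STS; with a pseudocount of 64, without the filter or without the variance trend, 0 genes were called. AHR, a receptor for aromatic ligands, read 8.27 and 8.19 in STS_0 and STS_1 against 12.04 and 11.40 in Sarcoma_0 and Sarcoma_1 (log2 fold change, STS minus Sarcoma, -3.49, adjusted p = 0.0369), and was at 12.24, 11.93 and 11.87 in the TCC. SLA, an adaptor of antigen receptor signaling, read 5.26 and 5.83 in STS_0 and STS_1 against 9.22 and 8.94 in Sarcoma_0 and Sarcoma_1 (-3.54, adjusted p = 0.0369), and was at 10.84, 11.11 and 10.94 in the TCC. In all, 826 genes (10.2% of those tested) had an unadjusted p under 0.05. For both genes the 2 Sarcoma tumors lay nearer to the TCC than the STS tumors did.

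Immune genes ran the same way without single calls. All 6 tested T and NK cell genes, all 8 class II genes, all 9 class I genes, all 19 macrophage and dendritic cell genes and 17 of 18 interferon response genes were lower in STS than in Sarcoma, at medians of -3.69, -2.88, -2.39, -1.68 and -2.02, where the median over all genes was -0.05 and 53.0% of them were negative. The mean level of the T and NK cell list was 5.72 and 6.43 in STS_0 and STS_1, 9.69 and 10.70 in Sarcoma_0 and Sarcoma_1, and 6.54 to 7.40 in the TCC. For the class II list the means were 8.87 and 9.66 in the STS tumors, 12.73 and 11.89 in the Sarcoma tumors, and 10.71 to 13.09 in the TCC. The TCC thus lay between the STS and the Sarcoma tumors for the T cell, class I and interferon lists, and the interferon list had a median of -0.03 between sarcoma and TCC. The acute phase protein SAA1, at 5.64 and 4.91 in the STS tumors against 11.52 and 12.65 in the Sarcoma tumors, and CLU, the secreted chaperone clusterin, at 6.88 and 9.44 against 14.59 and 14.86, showed the widest such gaps among the 10 genes of smallest p, each with an adjusted p of 0.0693. SAA1 and CLU were chosen after their values were seen. With 2 tumors a title, the share of each title's dogs, sites or sampling in these gaps was not tested.

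**Figure D5:**
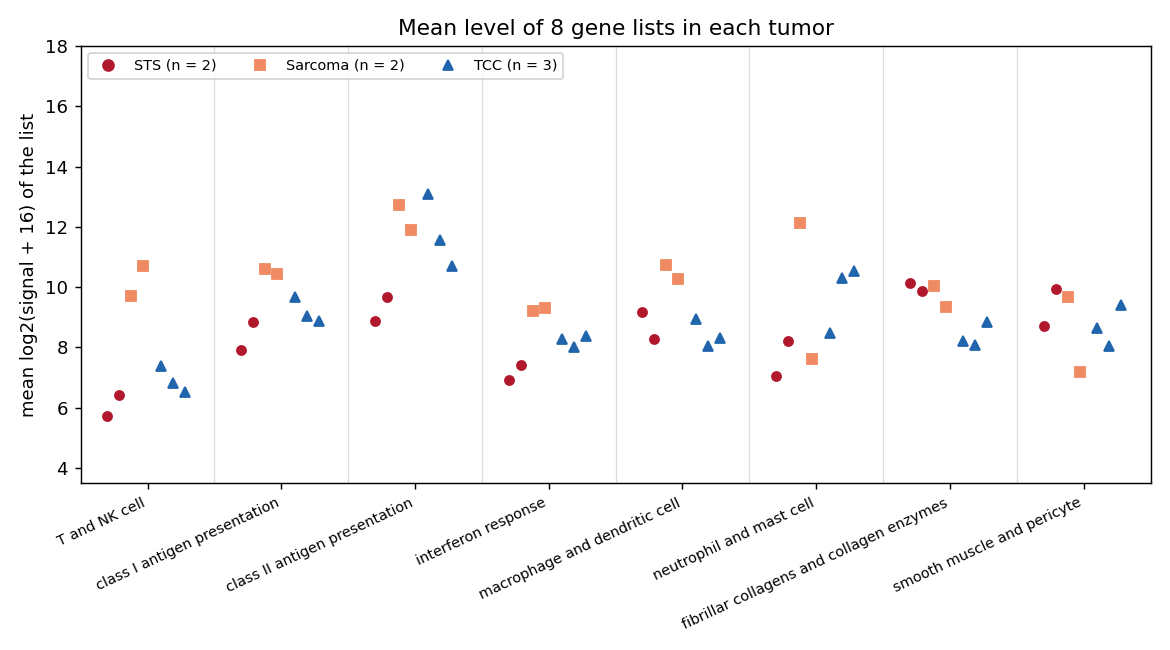
Mean log2(signal + 16) over the tested members of 8 gene lists, 1 point for each tumor, with STS (red circles) and Sarcoma (orange squares) left of TCC (blue triangles). The Sarcoma tumors lie above both STS tumors in the first 5 lists, while the collagen list is above every TCC in all 4 sarcomas, from 9.35 to 10.13 against 8.09 to 8.86.

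Each title was also set against the same 3 TCC on its own. The fit of the STS tumors alone against TCC called 228 genes higher and 402 lower, and that of the Sarcoma tumors alone called 231 higher and 266 lower, of which 446 and 366 were among the 662. EPCAM, UPK1A, PRRX1, COL6A3, DCN and MMP14 were called in both, but many other named genes were not. With the Sarcoma tumors alone, COL3A1, FBN1, FBLN2, SPARC, LOXL3, SERPINH1, LAMA4, NID1, TNFAIP6, DDR2, NR3C1 and CD34 were among those not called. ABI3BP was not called with the STS tumors alone, and FGF7 and PLXDC1 were called with neither title alone.

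The other 16 tumors of the series put the 2 gene sets in context. For the 395 genes called lower in sarcoma, the number that lay above all 4 sarcomas was 248 in the nasal tumor, 178 in the hepatocellular carcinoma, 131 in the hemangiosarcoma, 100 in the histiocytic sarcoma, 93 to 156 among 5 melanomas and 98 to 141 among 7 lymphomas. For the 267 genes called higher, the number above all 3 TCC was 155 in the nasal tumor, 106 in the hepatocellular carcinoma, 195 in the hemangiosarcoma, 204 in the histiocytic sarcoma, 185 to 250 in melanomas and 122 to 147 in lymphomas. Over all 8082 genes, the share above all 4 sarcomas was 26.3% in the nasal tumor and 21.1% in the hepatocellular carcinoma, against 62.8% and 45.1% of the 395, and in the lymphomas the share of the 395 (24.8% to 35.7%) lay near that of all genes (25.2% to 30.9%). In the melanomas 23.5% to 39.5% of the 395 lay above all 4 sarcomas, against 17.8% to 25.02% of all genes, in the hemangiosarcoma 33.2% against 18.6%, and in the histiocytic sarcoma 25.3% against 19.5%. Of the 267, the share above all 3 TCC was 58.1% in the nasal tumor, 39.7% in the hepatocellular carcinoma, 73.0% in the hemangiosarcoma, 76.4% in the histiocytic sarcoma, 69.3% to 93.6% in melanomas and 45.7% to 55.1% in lymphomas. Over all genes that share was 34.3% in the nasal tumor, 25.5% in the hepatocellular carcinoma, 32.2% in the hemangiosarcoma, 32.1% in the histiocytic sarcoma, 29.1% to 40.2% in melanomas and 34.6% to 39.0% in lymphomas. The genes were chosen for their values in the sarcomas and the TCC, so these counts have no test. In 196 of the 395 genes, every TCC lay above all 20 other tumors, and in 23 of the 267 every sarcoma lay above all 19 others. These 2 counts come from groups of unlike size and spread and cannot be set against each other. The same counts over all tested genes were not made. UPK1A was at most 6.89 in any tumor outside the TCC and MUC1 at most 7.07, whereas KRT18 reached 13.49 in the hepatocellular carcinoma. Among the higher genes, CDON was at most 8.47 outside the sarcomas and MATN2 at most 9.37, but PRRX1 reached 11.0005 and VIM 16.14 in a melanoma.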

How the data were processed

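Tumor RNA of 23 dogs, amplified with a whole-transcript kit, had been hybridised to 1 Affymetrix Canine Genome 2.0 array per dog. The deposited values are MAS5 signal intensity on a linear scale, which the authors scaled to a common trimmed mean; neither the MAS5 version nor scan batches are given in the sources read, and no batch was analysed here. Of 42924 probesets, 29254 carried 1 symbol of the platform annotation, 439 several and 13231 none. Here log2(signal + 16) was averaged over the probesets of a symbol, and genes above the median of all values in at least 3 of the 7 arrays were tested with limma 3.58.1 in R 4.3.3 (lmFit, eBayes with a variance trend), with Benjamini-Hochberg adjustment. The test was also run on simulated data with known changes, drawn with the same spread in both groups. The larger spread of the sarcomas was not simulated. The small number of arrays limits the precision.

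The sarcoma group, the gene lists and the tests were chosen with earlier results of these data known. Genes were named by rule: the 15 largest called changes in each direction without overlap, up to 4 called members per list and direction, the brightest uncalled member of a list, all tested drug-rule genes, and the genes called between STS and Sarcoma; others, chosen after their values were seen, are CLDN7, DSP, EBF1, ERBB3, ESRP2, F11R, FSCN1, GRHL1, GRHL2, GRHL3, JUP, LOX, MMP2, OVOL1, PERP, PPARG, PSCA, RECK, SERPINH1, SLC2A1, UPK2, UPK3A, ZEB1 and those led by single tumors. Not every gene that the rule took is given. Most of the brightest uncalled members and the called gene OSR2 are left out, and markers of cell types were named outside the rule. Numbers in titles do not pair the tumors: deviations of same-numbered tumors correlated at -0.07 to 0.02. Alternatives changed the pseudocount, normalization, filter, probeset summary, variance model, samples and threshold.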

Additional observations from a re-analysis of the deposited data

Results flagged for a closer look

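In groups of 4 samples, a value is set apart here when its gap to the nearest other sample, divided by the range of the group, exceeds Dixon's 95% limit; chance alone does so in about 1 of 20 groups, and 7 of the 143 genes checked and 3 of the 44 list means did. Sarcoma_0 stood apart from the other 3 sarcomas in CP (ratio 0.895), FXYD3 (0.838), POF1B (0.888) and SLC14A1 (0.908), in each case above them, and in NR3C1 (0.969), below them. STS_1 stood apart in MRC1 (0.836), below the others, and STS_0 in SFN (0.841), above them. Among the list means, Sarcoma_1 stood apart for the matrix glycoproteins (0.886), and STS_1 for the IGF binding proteins (0.921) and the genes of oxidative phosphorylation (0.905).

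AHR (log2 fold change, STS minus Sarcoma, -3.49) and SLA (-3.54) differed between the titles within the sarcoma group by limma's test, each with an adjusted p of 0.0369; with a pseudocount of 64, without the filter or without the variance trend, neither was called.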

How the results depend on the processing

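Since the groups of all 662 called genes do not overlap, leaving out tumors cannot change their sign. Of the 117 called genes named in the text, 63 kept the call in every alternative, but many of these were named for the size of their change. Of all 662 calls, 223 held with each tumor left out in turn, 69 higher and 154 lower. Without TCC_0 alone, 406 of the 662 were lost. Leaving out 1 tumor gave 93 to 291 genes higher and 166 to 385 lower, against 267 and 395, and 55 to 104 calls in the gene lists, against 96; each count fell most without a TCC (93 higher and 166 lower without TCC_0, 93 and 213 without TCC_1, 122 and 188 without TCC_2). With the title number as a replicate block, although the numbers do not pair the tumors, 70 genes were higher and 140 lower, with 50 calls in the lists. A fit on 19 arrays of 4 tumor types gave 440 higher, and a stricter fold limit of 2 on the log2 scale left 163 higher. Between STS and Sarcoma, 4 genes were called with a pseudocount of 1 and 0 with a pseudocount of 64, 0 without the filter and 0 without the variance trend, against 2 with limma as reported (826 at an unadjusted p under 0.05). The 3′ to 5′ difference was -0.50 on average, 0.0272 for GAPDH alone and -0.0195 for a second actin set, which was added after seeing the data, as were array weights.

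Of the genes not called, 4 changed sign. DNMT1 (0.03) was -0.19 with STS alone and -0.0534 to 0.198 with a tumor left out. HDAC2 (0.17) was -0.10 with Sarcoma alone. MTOR (0.22) was -0.16 with the brightest probeset and -0.13 with linear means. RAD23B (-0.08) was 0.0150 with the brightest probeset, 0.14 with STS alone and -0.218 to 0.0307 with a tumor left out. The cause was not tested. Low signals near the floor limit the size of the changes of silent genes.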

Other observations

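Genes of this section were chosen after their values were seen, form no list and carry no test of a theme. GCLC, the catalytic subunit of the first step of glutathione synthesis, read 10.22, 9.18, 10.51 and 9.41 in STS_0, STS_1, Sarcoma_0 and Sarcoma_1 against 13.79, 13.09 and 11.93 in the TCC (log2 fold change -3.11, SE 0.49, limma adjusted p = 0.00727). TXN, thioredoxin, read 11.96, 11.86, 12.33 and 12.04 in the sarcomas against 13.38, 13.30 and 13.47 in the TCC (-1.34, SE 0.20, adjusted p = 0.00621). ACLY, which makes cytosolic acetyl-CoA, differed by -2.60 (SE 0.27, adjusted p = 0.000913), and CPT1A, which brings fatty acids into mitochondria, by -3.75 (SE 0.35, adjusted p = 0.000544). These 4 calls held with each tumor left out in turn. Related genes were less stable: GSR, glutathione reductase, differed by -2.59 (adjusted p = 0.0430), ME1, malic enzyme, by -2.08 (adjusted p = 0.0482) and SQLE, of sterol synthesis, by -2.39 (adjusted p = 0.0391), and each lost its call in 6 of the 7 fits with 1 tumor left out (adjusted p up to 0.163, 0.177 and 0.124).

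Other epithelial genes had wide gaps. SFN, a 14-3-3 protein of epithelium, read 5.88, 4.40, 4.50 and 4.23 in the sarcomas against 10.66, 10.74 and 11.15 in the TCC (log2 fold change -6.10, SE 0.46, adjusted p = 0.000209). S100P, a calcium-binding protein, differed by -5.90 (adjusted p = 0.00162), GRB7, an adaptor of receptor kinases, by -4.39 (adjusted p = 0.00111) and TNFSF11, the ligand that drives osteoclasts, by -4.66 (adjusted p = 0.00316). On the higher side stood the adhesion receptor ICAM1 (3.37, SE 0.57, adjusted p = 0.00951) and the costimulatory receptor CD40 (2.80, SE 0.47, adjusted p = 0.00958).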
